A study of Mus musculus with 6 samples.

Results

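Colon macrophages that carried arginase 1 transcripts (Arg1) but none of the inducible nitric oxide synthase gene (Nos2) made up 1804 of 21991 gated macrophages (8.20%) and 1804 of the 39613 cells kept from 60605 barcodes. A cell was taken where it had at least 2 unique molecular identifiers (UMIs) of Arg1 and 0 of Nos2. It also needed at least 5 UMIs of Csf1r, Lyz2 and Cd68 together, at most 1 UMI over 6 T-cell receptor complex genes (Cd3d, Cd3e, Cd3g, Trac, Trbc1, Trbc2), no Epcam, and S100a8 with S100a9 under 1% of its UMIs. These counts chose the cells, so Arg1, Nos2 and the gate genes are described and not tested.

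The cells came from the colons of transplanted mice, in 6 droplet single-cell libraries, each the only library of its group. The GVHD library held donor CD11b+ CD64+ macrophages from recipients of bone marrow with added spleen cells, the graft that gives graft-versus-host disease. The BM library held the same sort from recipients of bone marrow alone. Macrophages of IL34KO (IL-34-/-) recipients (IL34KO-M) and of WT recipients (WT-M) had the same sort, and donor T cells were sorted from IL34KO recipients (IL34KO-T) and WT recipients (WT-T). Both T-cell libraries also held many macrophages: 4224 gated in IL34KO-T and 7263 in WT-T, although the sort was for T cells. The graft given to the IL34KO and WT recipients, and the strain and age of the mice, are not stated in the labels. The IL34KO recipient lacked interleukin 34, while the cells the sorts aimed at were of donor origin. Macrophages in the T-cell libraries were not the cells sorted for, so the sort does not tell whether they came from donor or recipient.

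Arginase 1 splits arginine into ornithine and urea, while the Nos2 product turns the same amino acid into nitric oxide and citrulline. The enzymes therefore compete for a shared substrate, and in mouse macrophages Arg1 is classically induced by interleukin 4 and interleukin 13, by hypoxia and by the uptake of dying cells, while Nos2 follows interferon gamma and microbial products. Macrophages of the gut are renewed from blood monocytes and depend on CSF1R, a receptor bound by interleukin 34 and CSF1.

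The macrophage label was checked with a gene the gate did not use. The complement gene C1qb, made by mature macrophages, had a UMI in 82.1% to 98.4% of the Arg1+ Nos2- cells thinned to 2000 UMIs, against 4.67% to 11.4% of the T cells of the same 5 libraries (BM set aside). T cells here had at least 3 UMIs of the 6 T-cell genes and at most 1 UMI of Csf1r, Lyz2 and Cd68 together. That cap leaves out T-cell barcodes with more macrophage RNA, so the T-cell shares can understate the background. The gate had capped 5 of the 8 T-cell marker genes, S100a8, S100a9 and Epcam, so sums of lists that hold them do not check the label. T-cell genes summed to 3.11 to 13.04 CPM in the Arg1+ Nos2- cells and 6.57 to 21.3 CPM in the Arg1- Nos2- cells. Neutrophil genes ran from 72.03 to 1116 CPM in the Arg1+ Nos2- cells and 88.3 to 742 CPM in the Arg1- Nos2- cells, with the 2 highest values of the Arg1+ Nos2- cells, 1116 and 799 CPM, in IL34KO-M and WT-M. Monocyte genes summed to 1559 to 2766 CPM in the Arg1+ Nos2- cells and 1352 to 2961 CPM in the Arg1- Nos2- cells, and those of resident macrophages to 4995 to 8928 CPM in the Arg1+ Nos2- cells and 4520.4 to 8374 CPM in the Arg1- Nos2- cells. Dendritic cell genes summed to 33.2 to 52.9 CPM in the Arg1+ Nos2- cells and 53.97 to 75.5 CPM in the Arg1- Nos2- cells, those of eosinophils to 3.73 to 7.05 CPM in the Arg1+ Nos2- cells and 3.62 to 6.13 CPM in the Arg1- Nos2- cells, and those of B cells to 1.53 to 3.73 CPM in the Arg1+ Nos2- cells and 3.16 to 4.29 CPM in the Arg1- Nos2- cells. Mast cell and basophil genes reached at most 0.622 CPM, with Cpa3, Mcpt4, Fcer1a and Ms4a2 at 0 in every library. Epithelial genes summed to 23.5 to 113 CPM in the Arg1+ Nos2- cells and 32.3 to 119 CPM in the Arg1- Nos2- cells, fibroblast genes to 2.83 to 6.98 CPM in the Arg1+ Nos2- cells and 16.2 to 94.4 CPM in the Arg1- Nos2- cells and endothelial genes to 13.5 to 20.2 CPM in the Arg1+ Nos2- cells and 24.9 to 54.5 CPM in the Arg1- Nos2- cells. The part of these other cell types in the results was not tested.

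The libraries held 43660889 to 114425913 UMIs. The median Arg1+ Nos2- cell had 7449 UMIs in WT-T at the shallow end and 27440.5 in BM at the deep end. The median was higher than that of all gated macrophages in each of the 6 libraries, and the part of this depth difference in the shares was not tested. BM and GVHD shared 2502 barcodes, of which 2486 had more UMIs in GVHD, so these were taken out of BM. Of the 422 Arg1+ Nos2- cells of GVHD, 394 carried such a shared barcode. Other pairs of libraries shared 5 to 75 barcodes. T cells, which should lack Arg1, were counted by the same cut. Their cap on Csf1r, Lyz2 and Cd68 can lower these shares too. None of 131 in GVHD, 150 in IL34KO-M, 62 in WT-M, 1049 in IL34KO-T and 1648 in WT-T had 2 Arg1 UMIs without Nos2, which allows shares of up to 2.29%, 2.00%, 4.84%, 0.286% and 0.182% (3 counts of the total). These T cells were shallower than the Arg1+ Nos2- cells, with medians of 2742 to 4777 UMIs in the 5 libraries. Thinned to 2000 UMIs with 1 Arg1 UMI required, T cells counted 1 of 107 in GVHD (0.935%), 0 of 132 in IL34KO-M, 0 of 54 in WT-M, 5 of 803 in IL34KO-T (0.623%) and 5 of 1171 in WT-T (0.427%), and 6 of 126 in BM (4.76%). In BM 9 of 131 T cells had 2 Arg1 UMIs without Nos2, or 6.87%, and those T cells also held 2063 CPM of B-cell and 1727 CPM of fibroblast marker genes.

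The share of Arg1+ Nos2- cells among gated macrophages differed widely between libraries. It was 20.5% (18.8 to 22.4) in GVHD, 0.510% (0.245 to 0.936) in BM, 3.62% (2.99 to 4.33) in IL34KO-M, 6.12% (5.34 to 6.99) in WT-M, 8.57% (7.74 to 9.46) in IL34KO-T and 9.51% (8.85 to 10.2) in WT-T. Brackets hold exact Clopper-Pearson 95% intervals, which cover counting error only, and with 1 library a group no test between groups was possible. The 10 cells of BM made a lower share than the T cells of BM did, so they are not read as expression, and where their Arg1 came from was not tested. The ratio of GVHD to BM, 40.3 (21.6 to 75.2), rests on those 10 cells and is a description; it was 4.56 (3.84 to 5.41) with the shared barcodes kept in BM. IL34KO-M was at 0.591 of WT-M (0.472 to 0.739), and IL34KO-T at 0.901 of WT-T (0.798 to 1.02). Gated cells with at least 2000 UMIs were also thinned to 2000, with 1 Arg1 UMI and no Nos2 required after thinning. Shallower cells were left out, 86 in IL34KO-M, 104 in WT-M, 551 in IL34KO-T and 198 in WT-T. Cells whose Nos2 UMIs were lost in thinning could enter, so this class is not the same set of cells. The shares were then 17.8% in GVHD, 0.373% in BM, 6.42% in IL34KO-M, 7.64% in WT-M, 11.9% in IL34KO-T and 11.5% in WT-T. The interval of the IL34KO-M to WT-M ratio then reached 1, at 0.840 (0.701 to 1.01), and IL34KO-T to WT-T stood at 1.03 (0.921 to 1.15).

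Arg1 without Nos2 was the common state of Arg1 cells in GVHD and the rare state in IL34KO-M. Among gated cells with at least 2 Arg1 UMIs, 422 of 672 in GVHD lacked Nos2 (62.8%, 59.0 to 66.5). That share was 19.2% (16.1 to 22.6) in IL34KO-M, 34.8% (31.0 to 38.8) in WT-M, 49.1% (45.4 to 52.7) in IL34KO-T and 49.9% (47.2 to 52.6) in WT-T. Cells with at least 2 UMIs of each gene made up 9.88% of gated macrophages in GVHD, 13.6% in IL34KO-M, 9.99% in WT-M, 6.89% in IL34KO-T and 7.55% in WT-T. The Nos2+ Arg1- class (at least 2 Nos2 UMIs and no Arg1) was 6.43% in GVHD, 27.1% in IL34KO-M, 19.97% in WT-M, 11.4% in IL34KO-T and 12.2% in WT-T. GVHD was thus the 1 library of these 5 in which Arg1+ Nos2- cells outnumbered Nos2+ Arg1- cells.

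**Figure D1:**
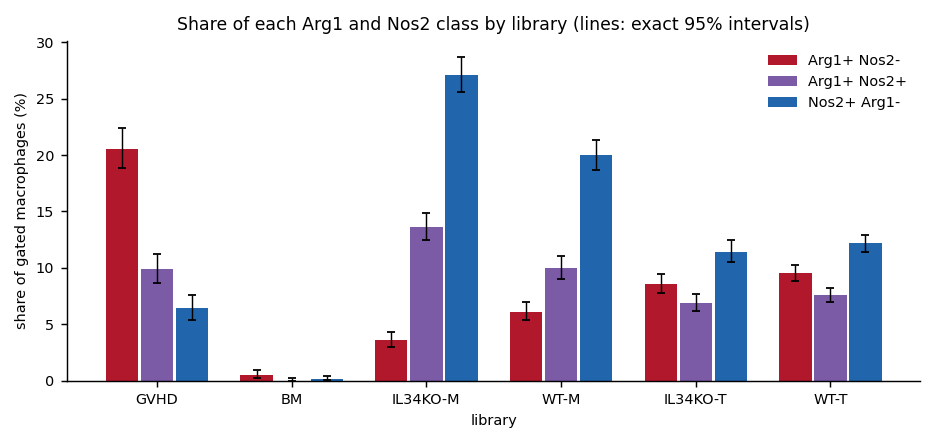
Share of gated macrophages (%, y axis) in the Arg1+ Nos2-, Arg1+ Nos2+ and Nos2+ Arg1- classes in each of the 6 libraries (x axis); lines are exact 95% intervals for counting error. Arg1+ Nos2- cells reach 20.5% in GVHD and 0.510% in BM, and lie between 3.62% and 9.51% in the other libraries.

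Arg1 itself was at 469 CPM in GVHD, 537 in BM, 639 in IL34KO-M, 477 in WT-M, 771 in IL34KO-T and 802 in WT-T, where CPM is the gene's part of all UMIs summed over the cells, on the usual CPM scale. The gene (ENSMUSG00000019987) lies on chromosome 10 at 24915221 to 24927484 of mm10, minus strand. The median cell carried 6.5 Arg1 UMIs in GVHD, 6 in IL34KO-M, 5 in WT-M and 4 in both T-cell libraries, and the highest cell 125. Cells just inside the threshold, with exactly 2 Arg1 UMIs, and just outside, with 1, were close in some genes and apart in others. In WT-T, Chil3 was at 673 CPM in cells with 2 Arg1 UMIs and 312 CPM in those with 1, while Spp1 stood at 119 and 102.9 CPM. In GVHD, Chil3 was at 569 CPM with 2 Arg1 UMIs and 556 CPM with 1, and Ccl17 at 20.3 and 98.5 CPM. The direction differed between libraries. In the same order, Chil3 was at 815 and 495 CPM in WT-M, 391 and 646 CPM in IL34KO-M and 372 and 408 CPM in IL34KO-T. Ccl17 was at 10.3 and 76.8 CPM in WT-M and 48.1 and 133 CPM in IL34KO-T. It went the other way in IL34KO-M, at 121 and 56.2 CPM, and in WT-T, at 123 and 62.6 CPM.

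Set against macrophages with neither Arg1 nor Nos2, the Arg1+ Nos2- cells carried more Spp1, Atp6v0d2, Inhba, Chil3 and lipid-handling genes and less of the cell-cycle genes. Arg1+ Nos2- cells were matched to Arg1- Nos2- cells of their own library within 20% of their UMIs (410 of 422 in GVHD and all 113 in IL34KO-M, 206 in WT-M, 362 in IL34KO-T and 691 in WT-T), and the UMI sums of both classes were compared over 5 libraries (BM had too few cells). Of 10160 genes tested, 560 were higher (5.51%) and 492 lower (4.84%) at an adjusted p under 0.05 in edgeR's quasi-likelihood test with the library as a block. Every p from this fit and the next measures the spread of the within-library difference over 5 libraries of different groups, not over animals. The count of lower genes was 281 without WT-T and 297 without IL34KO-T; without the library block 8 genes were higher and 5 lower, and with DESeq2 357 and 247.

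Spp1, which codes for the secreted matrix protein osteopontin, had the largest upward fold change among the genes named here. Spp1 was at 211 CPM in GVHD, 302 CPM in IL34KO-M, 179.7 CPM in WT-M, 409 CPM in IL34KO-T and 387 CPM in WT-T, against 94.00, 42.4, 38.1, 35.4 and 42.5 CPM in the matched Arg1- Nos2- cells of the same libraries in this order. All 5 libraries were higher and the classes did not overlap (log2 fold change 2.54, adjusted p = 1.03e-05). Atp6v0d2, a subunit of the vacuolar proton pump that acidifies lysosomes, was higher in 5 of 5 libraries as well. Atp6v0d2 was at 87.7 CPM in GVHD, 29.2 CPM in IL34KO-M, 112 CPM in WT-M, 152 CPM in IL34KO-T and 146 CPM in WT-T, against 27.1, 16.8, 32.1, 49.5 and 64.02 CPM in the matched Arg1- Nos2- cells of the same libraries in this order (log2 fold change 1.57, adjusted p = 2.33e-07). IL34KO-M was the low library in both classes. Against Nos2+ Arg1- cells Atp6v0d2 was higher by log2 0.56 (edgeR adjusted p = 0.0282). That call was lost with DESeq2 (adjusted p = 0.512) and without WT-M, IL34KO-T or WT-T (edgeR adjusted p = 0.0503 to 0.143). Inhba, the subunit of the cytokine activin A, averaged 285 ± 98.5 CPM in Arg1+ Nos2- cells and 113 ± 28.8 CPM in matched Arg1- Nos2- cells (SD, n = 5 libraries; log2 fold change 1.35, adjusted p = 2.42e-06). Inhba was at 124 CPM in GVHD, 293 CPM in IL34KO-M, 282 CPM in WT-M, 338 CPM in IL34KO-T and 386 CPM in WT-T, against 68.3, 131, 141, 102 and 123 CPM in the matched Arg1- Nos2- cells of the same libraries in this order. Here GVHD was the low library.

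Chil3 (chromosome 3, 106147554 to 106167564), a chitinase-like secreted protein of mouse macrophages, and Thbs1, the matricellular protein thrombospondin 1, had been named as markers of these cells with results of these data known, so their direction is not independent support for the label. Chil3 was at 819 CPM in GVHD, 718 CPM in IL34KO-M, 1060.4 CPM in WT-M, 657 CPM in IL34KO-T and 729 CPM in WT-T, against 551, 393, 544, 274 and 273 CPM in the matched Arg1- Nos2- cells of the same libraries in this order. Chil3 was higher in all 5 and the classes did not overlap (log2 fold change 1.08, adjusted p = 3.78e-06). Thbs1 was at 1006 CPM in GVHD, 319 CPM in IL34KO-M, 443 CPM in WT-M, 492 CPM in IL34KO-T and 477 CPM in WT-T, against 868, 224, 405, 468 and 416 CPM in the matched Arg1- Nos2- cells of the same libraries in this order. The Thbs1 difference was small, log2 0.28, and 0.12 without depth matching, and the ranges of the classes overlapped. As shares of cells thinned to 2000 UMIs, Thbs1 was found in 66.5% in GVHD, 31.2% in IL34KO-M, 40.6% in WT-M, 43.3% in IL34KO-T and 42.3% in WT-T of the Arg1+ Nos2- cells, against 28.6% to 58.1% of matched cells. Thbs1 thus set these cells apart little, and Chil3 more clearly.

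Pdpn (podoplanin, a surface glycoprotein that binds the platelet receptor CLEC-2) averaged 114 ± 41.6 CPM in Arg1+ Nos2- cells and 45.1 ± 10.97 CPM in matched Arg1- Nos2- cells (log2 fold change 1.36, adjusted p = 1.83e-06), higher in 5 of 5 libraries. Fzd7, a Wnt receptor, was at 22.4 ± 8.66 CPM in Arg1+ Nos2- cells and 8.97 ± 5.45 CPM in matched Arg1- Nos2- cells (log2 fold change 1.37, adjusted p = 1.71e-05). Plpp3, a lipid phosphate phosphatase, was at 48.9 ± 30.1 CPM in Arg1+ Nos2- cells and 20.3 ± 13.7 CPM in matched Arg1- Nos2- cells (log2 fold change 1.37, adjusted p = 6e-06), and Cacna1d, a calcium channel subunit, at 295 ± 15.8 CPM in Arg1+ Nos2- cells and 150.4 ± 40.7 CPM in matched Arg1- Nos2- cells (log2 fold change 1.03, adjusted p = 1.03e-05). These and later ± values are SDs over 5 libraries. Tmeff1 (log2 1.33), Syngr1 (log2 1.22), Wfdc21 (log2 1.15), Rhoc (log2 0.99) and Cd63, a lysosomal membrane tetraspanin (log2 0.95), were also called higher, in 5 of 5 libraries each. Against Nos2+ Arg1- cells, leaving out any 1 library, Pdpn ran from log2 -0.14 to 0.04 and Plpp3 from -0.05 to 0.28. Wfdc21 ran from -0.18 to 0.11, Rhoc from 0.05 to 0.20 and Cacna1d from 0.11 to 0.20. Fzd7 lay below 0 there, from -0.45 to -0.25, and Tmeff1 from -0.77 to -0.60. Syngr1 lay above 0, from 1.24 to 1.39, and Cd63 from 0.32 to 0.62.

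**Figure D2:**
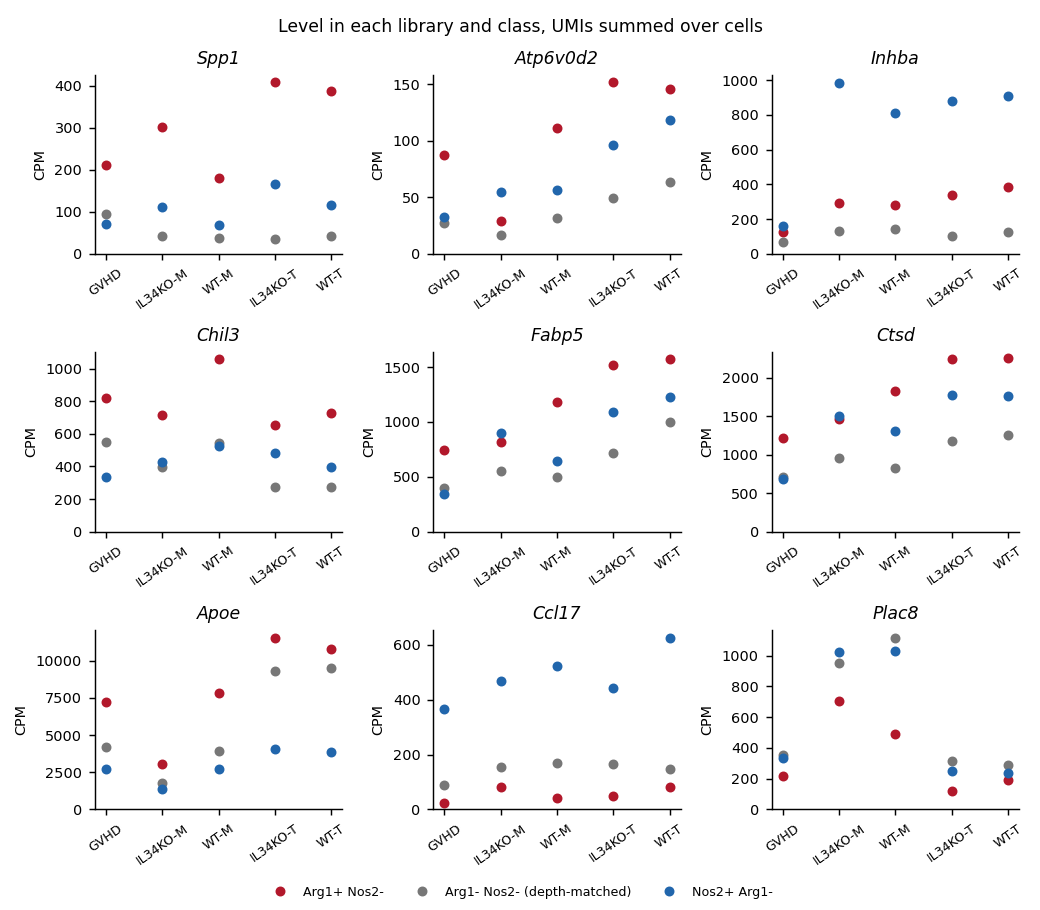
Level (CPM, y axes from 0) of 9 genes in each of 5 libraries (x axes) for Arg1+ Nos2- cells, depth-matched Arg1- Nos2- cells and Nos2+ Arg1- cells; each point is 1 library. Spp1 and Chil3 are highest in the Arg1+ Nos2- cells of all 5 libraries, Inhba and Ccl17 in the Nos2+ Arg1- cells.

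Genes of lipid handling rose together: 19 of 22 tested were higher and none lower (median log2 fold change 0.54, against -0.0009 over all genes tested). Fabp5, a fatty acid carrier, averaged 1167 ± 382 CPM in Arg1+ Nos2- cells and 633 ± 235 CPM in matched Arg1- Nos2- cells (log2 fold change 0.97, adjusted p = 1.83e-06). Fabp5 was at 748 CPM in GVHD, 819 CPM in IL34KO-M, 1179 CPM in WT-M, 1516 CPM in IL34KO-T and 1574 CPM in WT-T, against 399, 556, 496, 719 and 998 CPM in the matched Arg1- Nos2- cells of the same libraries in this order. Apoe, the main apolipoprotein of macrophages, rose by log2 0.67 and Apoc2, an activator of lipoprotein lipase, by 0.86. Trem2, a lipid-sensing receptor, rose by 0.71 and Lgals3 (galectin 3) by 0.50, in 5 of 5 libraries each. Gpnmb, a lysosomal glycoprotein named here after its values were seen, rose by 0.95. With cycling cells left out 15 of 22 were called higher. Against Nos2+ Arg1- cells, leaving out any 1 library, Lgals3 ran from log2 -0.08 to -0.04 and Fabp5 from 0.38 to 0.68.

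Of 14 iron and haem genes tested, 9 were higher and none lower (median 0.37). The ferritin subunits that store iron, Fth1 and Ftl1, rose by log2 0.57 and 0.39, the transferrin gene Trf by 0.47 and the biliverdin reductase gene Blvrb by 0.36. Against Nos2+ Arg1- cells, leaving out any 1 library, Fth1 ran from log2 -0.42 to -0.27 and Blvrb from -0.42 to -0.22. Ftl1 ran from 0.11 to 0.19 there and Trf from 0.65 to 0.81. Proteases and their inhibitors had 10 of 15 higher and 2 lower (median 0.57). The lysosomal aspartic protease Ctsd averaged 1798 ± 465 CPM in Arg1+ Nos2- cells and 985 ± 229 CPM in matched Arg1- Nos2- cells (log2 fold change 0.93, adjusted p = 1.39e-07). Ctss, a cathepsin that trims the MHC class II invariant chain, rose by 0.59, Ctsb by 0.43 and the membrane metalloprotease Adam8 by 0.64. The 2 lower genes were the secreted metalloproteases Mmp9 (log2 -2.76) and Mmp13 (log2 -1.14). The Mmp13 call was lost without IL34KO-T (adjusted p = 0.073) and without WT-T (adjusted p = 0.0716), and its SD over libraries, 1.31, exceeded the mean difference. Mmp9 is also a neutrophil gene, and the neutrophil sums above moved between libraries; their part was not tested.

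Among coagulation and wound repair genes 16 of 29 were higher and none lower (median 0.32), a list that holds Spp1, Inhba and Thbs1. Fn1, the matrix protein fibronectin, was at 491 ± 144 CPM in Arg1+ Nos2- cells and 286 ± 107 CPM in matched Arg1- Nos2- cells (log2 fold change 0.85, adjusted p = 7.66e-06). Vegfa, the vascular growth factor, was at 244 ± 56.5 CPM in Arg1+ Nos2- cells and 159 ± 27.5 CPM in matched Arg1- Nos2- cells (log2 fold change 0.68, adjusted p = 2.78e-06), higher in 5 of 5 libraries. Leaving out any 1 library, Vegfa ran from log2 -0.24 to -0.11 against Nos2+ Arg1- cells. Osm, the cytokine oncostatin M, rose by 0.58. Glycolysis and hypoxia genes had 18 of 33 higher and none lower (median 0.28), from 14 to 18 when any 1 library was left out. They included Hilpda, a lipid droplet protein induced by low oxygen (0.59), Bnip3l, a mitophagy receptor (0.48), and the glycolytic enzyme gene Pgam1 (0.42). Complement and Fc receptor genes had 12 of 18 higher and none lower (median 0.25), among them the Fc receptor genes Fcgr3 (0.36) and Fcer1g (0.21) and the integrin Itgam (0.41).

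Proliferation genes were lower, by an amount that moved with the matching. Of 22 cell-cycle genes 14 fell and none rose (median -0.69). Without depth matching 7 of 22 fell (median -0.34), and with at least 4 Arg1 UMIs required 9 of 21 fell (median -0.40). Top2a, the topoisomerase of dividing cells, was at 37.5 ± 9.66 CPM in Arg1+ Nos2- cells and 92.6 ± 52.8 CPM in matched Arg1- Nos2- cells (log2 fold change -1.05, adjusted p = 5.62e-05). Top2a was at 37.5 CPM in GVHD, 47.9 CPM in IL34KO-M, 45.1 CPM in WT-M, 23.6 CPM in IL34KO-T and 33.6 CPM in WT-T, against 60.4, 183, 96.9, 58.1 and 64.8 CPM in the matched Arg1- Nos2- cells of the same libraries in this order. The replication-dependent histone gene Hist1h1b fell by log2 1.84, and Stmn1, Pclaf and Kif11 fell by 0.89, 1.10 and 1.37. With cells that held at least 2 UMIs of 8 cycling genes left out of both classes, 10 of these 22 genes could still be tested and none was called, and Top2a stood at log2 0.49 (adjusted p = 0.465); the same step left 373 genes higher and 280 lower in all.

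Alternative activation genes were split: 6 of 23 were higher and 5 lower (median 0.06). Chil3 and Fn1 rose, while Ccl17, a chemokine that binds CCR4, and Mgl2, a C-type lectin of dermal and gut myeloid cells, fell. Ccl17 was at 25.1 CPM in GVHD, 81.5 CPM in IL34KO-M, 39.97 CPM in WT-M, 49.96 CPM in IL34KO-T and 80.5 CPM in WT-T, against 89.4, 156, 170.5, 166 and 148 CPM in the matched Arg1- Nos2- cells of the same libraries in this order. The classes did not overlap and all 5 libraries were lower (log2 fold change -1.41, adjusted p = 1.45e-05). Mgl2 averaged 65.04 ± 11.3 CPM in Arg1+ Nos2- cells and 126 ± 23.4 CPM in matched Arg1- Nos2- cells (log2 fold change -0.93, adjusted p = 9.86e-05), lower in 5 of 5. The mannose receptor Mrc1 averaged 376 ± 110.4 CPM in Arg1+ Nos2- cells and 388 ± 133 CPM in matched Arg1- Nos2- cells (adjusted p = 0.829), and Retnla 53.04 ± 54.6 CPM in Arg1+ Nos2- cells and 51.1 ± 35.6 CPM in matched Arg1- Nos2- cells with opposite directions among libraries (adjusted p = 0.854). Monocyte genes were split, with 4 of 18 higher and 5 lower (median 0.02). Plac8, which marks recent monocytes, fell by 0.77 and Ms4a4c by 0.81, in 5 of 5 libraries each. The count of alternative activation genes called higher was 3 without WT-T. The count of alternative activation genes called lower was 2 without IL34KO-T, 2 without WT-T and 3 without WT-M.

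Other arginine and polyamine genes changed little beside Arg1: of 15 tested, Slc7a2 was higher and Slc7a1 lower (median 0.10). Slc7a2 codes for the inducible cationic amino acid transporter that brings arginine into macrophages. Slc7a2 was at 194 CPM in GVHD, 392 CPM in IL34KO-M, 382 CPM in WT-M, 657 CPM in IL34KO-T and 623 CPM in WT-T, against 169, 344, 283, 415 and 443 CPM in the matched Arg1- Nos2- cells of the same libraries in this order (log2 fold change 0.48, adjusted p = 0.000186). The call on Slc7a1, a related transporter, was lost without each of GVHD, WT-M, IL34KO-T and WT-T (adjusted p = 0.0552 to 0.13). Arg2, the mitochondrial arginase, averaged 84.04 ± 26.8 CPM in Arg1+ Nos2- cells and 74.6 ± 19.9 CPM in matched Arg1- Nos2- cells (adjusted p = 0.0938), and Ass1, which rebuilds arginine from citrulline, 91.7 ± 26.5 CPM in Arg1+ Nos2- cells and 81.9 ± 23.8 CPM in matched Arg1- Nos2- cells (adjusted p = 0.0864). Among interferon-gamma response genes none of 28 was higher and Gbp4 (log2 -0.39) and Gbp3 (log2 -0.26) were lower, the Gbp3 call being lost without IL34KO-M, IL34KO-T or WT-T (adjusted p = 0.0968 to 0.155). Type I interferon genes had 1 of 23 lower, Ifi209 (log2 -0.25), a call lost without any 1 of the 5 libraries (adjusted p = 0.0607 to 0.125). The count of arginine and polyamine genes called higher was 2 without IL34KO-M and 2 without WT-M. The count of interferon-gamma response genes called lower was 1 without IL34KO-T and 1 without WT-T.

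The remaining lists moved in few members. Inflammatory cytokine and costimulatory genes had 6 of 22 higher, such as Il1a (log2 0.55), and 4 lower, such as the costimulatory ligands Cd86 (-0.31) and Cd80 (-0.32). Chemokines had 6 of 20 higher and 3 lower; Ccl6 and Ccl9, chemokines that bind CCR1, rose by 0.68 and 0.62, and the neutrophil attractant Cxcl3 by 0.86. MHC class II genes had 5 of 13 higher and 1 lower (median 0.05), with the invariant chain Cd74 at log2 0.14. Resident macrophage genes had 6 of 18 higher, including C1qb (0.25) and the apoptotic cell receptor Mertk (0.43), and 4 lower, including Gas6 (-1.12), a ligand of Mertk, and Fcrls (-1.17). Transcription factors had 8 of 31 higher and 1 lower; the count higher was 4 to 6 without any 1 library and 2 with cycling cells left out. Cebpb, which binds the Arg1 enhancer in mouse macrophages, rose by 0.26 and Id2 by 0.27. Against Nos2+ Arg1- cells, leaving out any 1 library, Id2 ran from log2 -0.38 to -0.25 and Mertk from -0.25 to -0.01. Cebpb ran from 0.03 to 0.09 there. Checkpoint and regulatory ligands had 2 of 19 higher, the ecto-enzyme Nt5e (1.64; with cycling cells left out 0.91, adjusted p = 0.116) and Sirpa (0.23), and 2 lower, the decoy interleukin 1 receptor Il1r2 (-0.73) and the ecto-enzyme Entpd1 (-0.23; with cycling cells left out -0.14, adjusted p = 0.184). Oxidative phosphorylation had 1 of 31 lower, Ndufa4 (-0.48), and stress and dissociation genes 2 of 20 higher and 2 lower. The count of inflammatory cytokine genes called higher was 3 without WT-T. The count of MHC class II genes called higher was 3 without WT-T and 3 without WT-M. The count of transcription factors called higher was 5 without IL34KO-M and 4 without WT-M. The count of inflammatory cytokine genes called lower was 2 without IL34KO-T and 2 without WT-T. The count of chemokine genes called lower was 1 without IL34KO-T, 1 without WT-T and 1 without WT-M. The count of resident macrophage genes called lower was 2 without WT-T. The count of stress and dissociation genes called lower was 1 without GVHD, 0 without IL34KO-T, 1 without IL34KO-M, 0 without WT-T and 0 without WT-M.

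The starts of 3 of the raised genes are shown because all were raised and they differ in the motifs searched: Ctsd holds E-boxes, Gpnmb an AP-1 motif, and Spp1, with the largest fold change, none. Each is 250 bases before to 50 after the RefSeq start on GRCm38.p6, 5′ to 3′ on the gene's strand; capitals mark an E-box (CACGTG) or an AP-1 motif (TGANTCA).
Ctsd (chr7:142387778-142388077, minus strand): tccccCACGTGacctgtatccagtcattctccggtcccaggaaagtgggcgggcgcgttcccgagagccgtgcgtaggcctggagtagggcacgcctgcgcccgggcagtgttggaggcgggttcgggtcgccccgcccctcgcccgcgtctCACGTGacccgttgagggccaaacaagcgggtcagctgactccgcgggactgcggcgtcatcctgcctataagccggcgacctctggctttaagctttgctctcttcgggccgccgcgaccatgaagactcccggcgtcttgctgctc
Gpnmb (chr6:49036268-49036567, plus strand): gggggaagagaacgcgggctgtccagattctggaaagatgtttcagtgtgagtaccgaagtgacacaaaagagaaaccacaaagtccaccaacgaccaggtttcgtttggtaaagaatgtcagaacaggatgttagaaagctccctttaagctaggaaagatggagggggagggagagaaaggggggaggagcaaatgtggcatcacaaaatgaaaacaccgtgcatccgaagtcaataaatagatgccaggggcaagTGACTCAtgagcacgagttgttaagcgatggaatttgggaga
Spp1 (chr5:104434861-104435160, plus strand): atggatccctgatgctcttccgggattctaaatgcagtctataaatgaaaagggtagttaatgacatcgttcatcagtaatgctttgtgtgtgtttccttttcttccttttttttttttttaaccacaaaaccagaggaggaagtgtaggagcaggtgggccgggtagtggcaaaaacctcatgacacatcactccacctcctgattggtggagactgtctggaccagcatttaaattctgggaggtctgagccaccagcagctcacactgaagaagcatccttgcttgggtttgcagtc
Ctsd held 2 E-boxes, at positions 6 and 153, and Gpnmb an AP-1 motif at position 259, counted from the window's first base. Among promoters of all 27025 genes in the table, 7.24% held the E-box and 7.93% the AP-1 motif on either strand. In genes tested against Arg1- Nos2- cells that had a promoter in the table (8077), the shares were 10.8% for the E-box and 4.98% for AP-1. Of the 435 genes called higher with a promoter, 10.1% held the E-box and 10.6% the AP-1 motif; of the 391 called lower, 10.2% and 6.14%. The motif ACGTG, which overlaps the E-box, was in 27.1% of tested, 27.1% of higher and 25.6% of lower genes. TTNNGNAA (C/EBP) was in 31.7%, 36.3% and 29.2% in the same order, and a STAT motif in 5.34%, 2.99% and 7.42%. These are letter matches, searched after the fold changes were known.

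Per cell, after thinning to 2000 UMIs, the raised genes were found in part of the Arg1+ Nos2- cells. Spp1 had a UMI in 23.1% in GVHD, 23.2% in IL34KO-M, 15.8% in WT-M, 23.8% in IL34KO-T and 20.6% in WT-T, against 3.15% to 8.68% of matched Arg1- Nos2- cells and 1.87% to 7% of T cells. In both T-cell libraries the matched cells lay below the T cells, so their share is read as background. Chil3 was found in 47.7% in GVHD, 49.1% in IL34KO-M, 54.5% in WT-M, 37.8% in IL34KO-T and 41.6% in WT-T of the Arg1+ Nos2- cells, against 22.8% to 38.6% of matched and 0.935% to 4.55% of T cells. Inhba was found in 15.9% in GVHD, 31.2% in IL34KO-M, 26.7% in WT-M, 27.5% in IL34KO-T and 28.5% in WT-T, against 9.43% to 12.5% and 0.747% to 3.7%. Unthinned, Spp1 was in 35.3% to 51.7% and Chil3 in 56.6% to 77.01% of the Arg1+ Nos2- cells. Spp1 and Chil3 were found together in 11.1% in GVHD, 13.4% in IL34KO-M, 7.4% in WT-M, 9.2% in IL34KO-T and 10.0% in WT-T. Chil3 was detected in 47.9% of cells with Spp1 and 47.6% of those without in GVHD, in 46.9% and 55.9% in WT-M, and in 48.6% and 39.7% in WT-T, so cells with Spp1 and cells with Chil3 were not separate sets.

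Against the Nos2+ Arg1- cells, which came from the same 5 libraries, the Arg1+ Nos2- cells carried more resident macrophage, complement and lipid genes and less of interferon-response, glycolysis and cytokine genes. Of 10618 genes tested 1080 were higher (10.2%) and 1186 lower (11.2%). The count higher was 689 without IL34KO-T, 674 without WT-T, 574 with DESeq2 and 163 without the library block, and the count lower 249 without the block. The Arg1+ Nos2- sums are shared with the comparison above, so the results of the 2 fits are given side by side and not counted as agreement.

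Apoe was among the most raised. Apoe was at 6969 CPM in GVHD, 3038 CPM in IL34KO-M, 7802 CPM in WT-M, 11547 CPM in IL34KO-T and 10751 CPM in WT-T, against 2703, 1391, 2713, 4070.2 and 3828 CPM in the Nos2+ Arg1- cells of the same libraries in this order. All 5 libraries were higher (log2 fold change 1.40, adjusted p = 5.69e-10). Selenop, a selenium carrier of resident macrophages, averaged 310.1 ± 105 CPM in Arg1+ Nos2- cells and 122 ± 28.4 CPM in Nos2+ Arg1- cells (log2 fold change 1.30, adjusted p = 5.95e-08), and Igf1, insulin-like growth factor 1, 29.2 ± 12.4 CPM in Arg1+ Nos2- cells and 7.42 ± 3.94 CPM in Nos2+ Arg1- cells (log2 fold change 1.99, adjusted p = 1.76e-07). Mrc1, at log2 0.04 (adjusted p = 0.829) against Arg1- Nos2- cells, was higher here. Mrc1 was at 526 CPM in GVHD, 216 CPM in IL34KO-M, 385 CPM in WT-M, 383 CPM in IL34KO-T and 370.1 CPM in WT-T, against 318, 94.7, 178, 221 and 222 CPM in the Nos2+ Arg1- cells of the same libraries in this order (log2 fold change 0.90, adjusted p = 1.76e-07). The monocyte chemoattractants Ccl2 and Ccl7, ligands of CCR2, rose by log2 1.30 and 1.73. Spp1 was higher by 1.46, Tmem37 by 1.53, Syngr1 by 1.33, Igfbp4 by 1.33, Fn1 by 0.94 and Trem2 by 0.71, each in 5 of 5 libraries. Not all of these genes were raised against Arg1- Nos2- cells. Leaving out any 1 library, Ccl2 ran from log2 -0.24 to -0.007 there and Ccl7 from -0.34 to -0.06. Igfbp4 ran from -0.11 to 0.12 and Selenop from 0.04 to 0.29. Tmem37 lay higher there, from 0.41 to 0.57, and Igf1 from 0.54 to 1.23. Thbs1 and Chil3 were at log2 0.83 and 0.87. Retnla was higher by 1.37 with all libraries, a call lost without IL34KO-T (adjusted p = 0.3) and without WT-T (adjusted p = 0.386).

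Ccl17 had the largest fold change downward among the genes named here. Ccl17 was at 23.8 CPM in GVHD, 81.5 CPM in IL34KO-M, 39.97 CPM in WT-M, 49.96 CPM in IL34KO-T and 80.5 CPM in WT-T, against 366, 470.1, 524, 442 and 624 CPM in the Nos2+ Arg1- cells of the same libraries in this order. The classes did not overlap (log2 fold change -3.27, adjusted p = 1e-09). Ccl22, which binds the same receptor as Ccl17, was lower by log2 2.13, Procr, the endothelial protein C receptor, by 1.93, and the granzyme B inhibitor Serpinb9 by 1.81. Ccr7, the lymph node homing receptor, was lower by 1.74, and Dcstamp, a fusion receptor of osteoclasts and dendritic cells, by 1.55, in 5 of 5 libraries each. Inhba, raised against Arg1- Nos2- cells, was lower against Nos2+ cells, at 284 ± 100.3 CPM in Arg1+ Nos2- cells and 750.3 ± 334 CPM in Nos2+ Arg1- cells (log2 fold change -1.29, adjusted p = 3.91e-06). Slc7a2 also lay between the classes. Slc7a2 was at 187 CPM in GVHD, 392 CPM in IL34KO-M, 382 CPM in WT-M, 657 CPM in IL34KO-T and 623 CPM in WT-T, against 403, 841, 951, 1253 and 1248 CPM in the Nos2+ Arg1- cells of the same libraries in this order (log2 fold change -1.09, adjusted p = 6.56e-09). Ass1 was lower by 0.86 and Arg2 by 0.36. Ccl17, Ccl22 and Ccr7 are also used by dendritic cells, whose marker genes summed to 33.2 to 52.9 CPM in the Arg1+ Nos2- cells and 84.5 to 144 CPM in the Nos2+ Arg1- cells; their part was not tested.

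By list, 21 of 28 interferon-gamma response genes were lower and none higher (median -0.48), from 20 to 22 when any 1 library was left out. Gbp4 and Serpina3g, both induced by interferon gamma, were lower by 0.71 and 0.90. Type I interferon genes had 10 of 23 lower and none higher (median -0.42), such as Ifit1 (-0.76) and Oasl2 (-0.53). Glycolysis and hypoxia genes had 23 of 33 lower and none higher (median -0.31), whereas against Arg1- Nos2- cells 18 were higher. Pgam1 was at log2 0.42 against Arg1- Nos2- cells and -0.25 against Nos2+ Arg1- cells. Inflammatory cytokine genes had 12 of 23 lower and 2 higher (median -0.31), and chemokines 8 of 20 lower and 6 higher. Alternative activation genes were again split, with 9 of 23 higher and 7 lower. The count of inflammatory cytokine genes called higher was 1 without IL34KO-T and 1 without WT-T.

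Resident macrophage genes had 13 of 18 higher and 1 lower (median 0.68), with C1qb higher by 0.56. Complement and Fc receptor genes had 12 of 19 higher and 3 lower (median 0.31), and lipid genes 12 of 24 higher and 1 lower (median 0.16), with Apoc2 higher by 1.08. Transcription factors had 14 of 31 higher and 7 lower, with 4 to 7 lower without any 1 library. Coagulation genes had 10 of 29 higher and 6 lower, matrix proteases 6 of 15 and 3, monocyte genes 7 of 18 and 4, arginine genes 4 of 15 and 5, checkpoint ligands 3 of 19 and 4, and iron genes 2 of 14 and 3. Cell-cycle genes had 2 of 22 higher and 1 lower, MHC class II genes 2 of 13 lower, and none of 31 oxidative phosphorylation genes was called by edgeR or DESeq2. Stress and dissociation genes, which rise when tissue is dissociated, had 14 of 20 higher and none lower (median 0.24); their part in the other results was not tested. The count of iron and haem genes called higher was 1 without GVHD, 4 without IL34KO-M, 1 without WT-T and 1 without WT-M. The count of cell cycle genes called higher was 1 without IL34KO-M. The count of lipid handling genes called lower was 4 without GVHD. The count of transcription factors called lower was 4 without WT-T. The count of matrix protease and inhibitor genes called lower was 1 without IL34KO-T and 1 without WT-M. The count of arginine and polyamine genes called lower was 3 without IL34KO-T, 3 without WT-T and 3 without WT-M. The count of checkpoint and regulatory ligands called lower was 2 without WT-T and 2 without WT-M. The count of iron and haem genes called lower was 6 without GVHD.

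**Figure D3:**
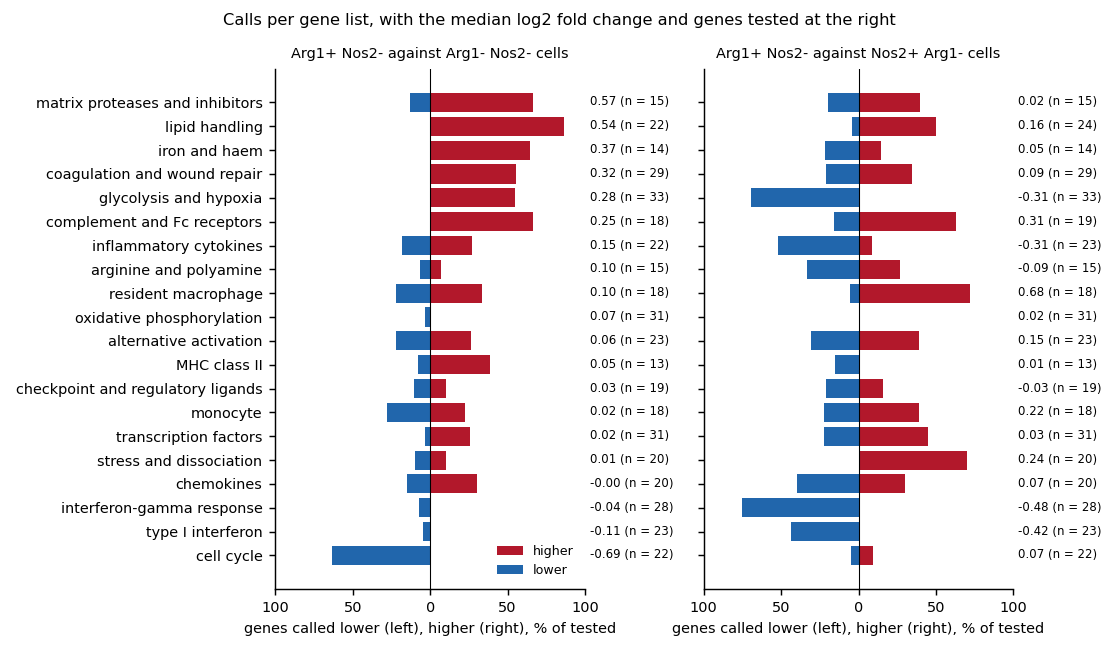
Share of tested genes of 20 lists called higher (right, red) or lower (left, blue) in Arg1+ Nos2- cells, against Arg1- Nos2- cells (left panel) and against Nos2+ Arg1- cells (right panel), with the median log2 fold change and genes tested beside each bar. Glycolysis genes are higher in 18 of 33 in the left panel and lower in 23 of 33 in the right.

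Within the Arg1+ Nos2- cells, some genes followed the amount of Arg1. Cells of each library were divided into tertiles of Arg1 per UMI, which is a description, since cells of a library are not replicates. Depth moved with the tertile, the median cell having 25114 UMIs in the lowest and 15216 in the highest tertile of GVHD, and its part was not tested. From the lowest to the highest tertile, Inhba was at 82.8, 133 and 166 CPM in GVHD, 212, 325 and 366 CPM in IL34KO-M, 148, 298 and 512 CPM in WT-M, 256, 302 and 493 CPM in IL34KO-T and 232, 346 and 626 CPM in WT-T. The level climbed in all 5 libraries. Pdpn was at 54.96, 67.4 and 91.4 CPM in GVHD, 46.3, 93.6 and 157 CPM in IL34KO-M, 40.4, 67.98 and 198 CPM in WT-M, 128, 128 and 239.6 CPM in IL34KO-T and 133, 135 and 215 CPM in WT-T, and its highest tertile was above the lowest in each library. Chil3 was at 597, 918 and 990.1 CPM in GVHD, 583, 602 and 1034 CPM in IL34KO-M, 596, 1110.3 and 1868 CPM in WT-M, 523, 531 and 986 CPM in IL34KO-T and 621, 706 and 893 CPM in WT-T, with the widest span in WT-M. Spp1 was at 119, 126 and 418 CPM in GVHD, 232, 352 and 342 CPM in IL34KO-M, 88.4, 227 and 289 CPM in WT-M, 384, 198 and 684 CPM in IL34KO-T and 185, 315 and 723 CPM in WT-T; IL34KO-T had its lowest value in the middle tertile.

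Ctsd climbed across all 3 tertiles in each of the 5 libraries. Other genes went down or had no common direction. Mgl2 was at 66.4, 62.4 and 31.1 CPM in GVHD, 65.5, 120.4 and 17.4 CPM in IL34KO-M, 131, 65.3 and 13.1 CPM in WT-M, 74.6, 81.7 and 19.5 CPM in IL34KO-T and 75.9, 45.5 and 41.01 CPM in WT-T, lowest in the highest tertile of every library. Plac8 was lower in the highest than in the lowest tertile of all 5, for example 298 and 701 CPM in WT-M. Thbs1 was at 959, 1035 and 1026 CPM in GVHD, 292, 287 and 393 CPM in IL34KO-M, 332, 538 and 526 CPM in WT-M, 515, 481 and 474 CPM in IL34KO-T and 428, 469 and 547 CPM in WT-T and showed no common direction. C1qb was at 2010.3, 2083 and 2374 CPM in GVHD, 2129.8, 2310.1 and 1736 CPM in IL34KO-M, 2353, 2578 and 2417 CPM in WT-M, 3478, 3362 and 3358 CPM in IL34KO-T and 3161, 3216 and 3244 CPM in WT-T, also with no common direction.

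**Figure D4:**
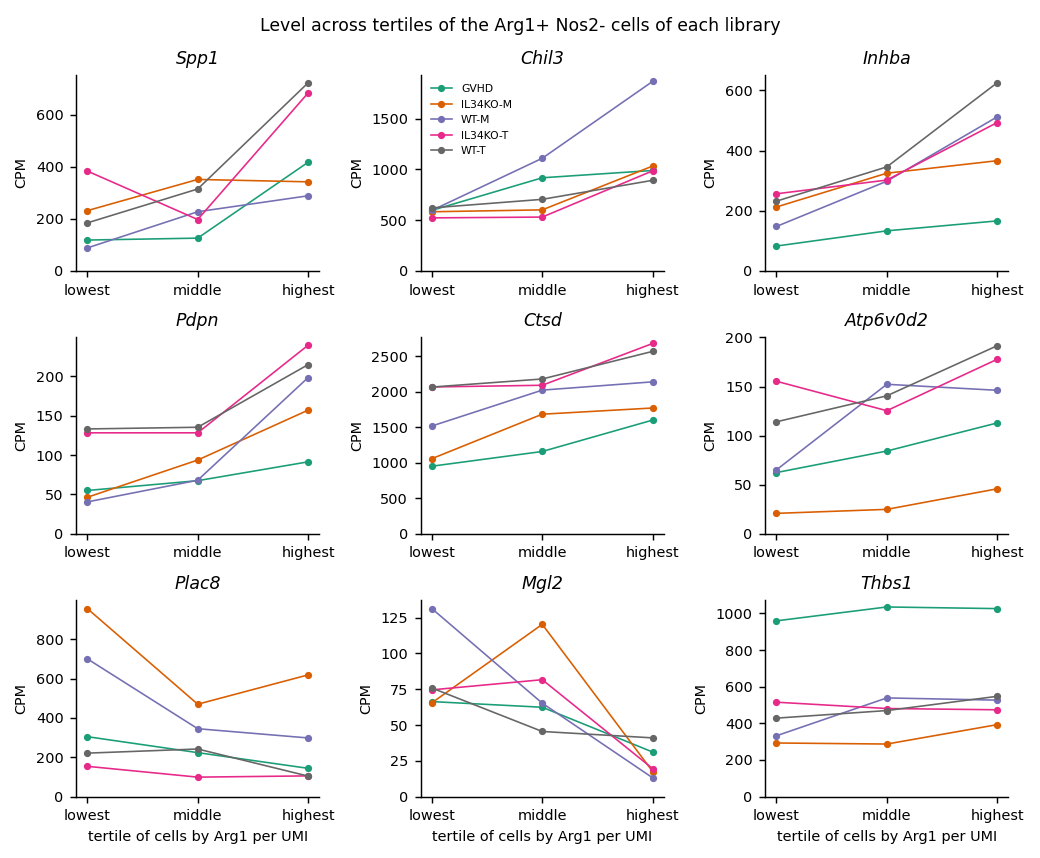
Level (CPM, y axes from 0) of 9 genes over tertiles of the Arg1+ Nos2- cells by Arg1 per UMI (x axes, low to high), 1 line per library. Inhba and Ctsd climb in all 5 libraries, Mgl2 is lowest in the highest tertile of each, and Thbs1 has no common direction.

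Il34, the gene deleted in the IL34KO recipients, had 2 UMIs in the Arg1+ Nos2- cells of IL34KO-M, 1 in WT-M, 0 in IL34KO-T and 1 in WT-T, with 1 in GVHD and 0 in BM. Counts this low do not check the label, and the labels do not name the exon deleted. Each recipient group has 1 library per sort, so the ratios below carry exact intervals for counting error only and no test. Ratios in the Arg1- Nos2- cells of the macrophage libraries are given for the genes named.

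In the macrophage libraries the Arg1+ Nos2- cells of IL34KO recipients had less Apoe, Atp6v0d2, Selenop, Trf, Mrc1 and Ifih1 and more Retnla and Spp1 than those of WT recipients, with ratios nearer 1 in the T-cell libraries. These genes are examples and no list was counted. Apoe was at 3038 CPM in IL34KO-M and 7802 CPM in WT-M, a ratio of 0.389 (0.378 to 0.401), and at 11547 CPM in IL34KO-T and 10751 CPM in WT-T, a ratio of 1.07 (1.06 to 1.09). In Arg1- Nos2- cells the Apoe ratios were 0.525 in the macrophage and 0.986 in the T-cell libraries. Atp6v0d2 was at 29.2 CPM in IL34KO-M and 112 CPM in WT-M, a ratio of 0.262 (0.189 to 0.355), and its ratio in the T-cell libraries was 1.04 (0.931 to 1.17). Selenop had ratios of 0.44 (0.379 to 0.51) and 1.25 (1.16 to 1.34), Trf 0.452 (0.394 to 0.518) and 1.06 (0.995 to 1.14), Mrc1 0.563 (0.499 to 0.634) and 1.03 (0.962 to 1.11), and Ifih1 0.384 (0.309 to 0.473) and 0.902 (0.798 to 1.02), each with the macrophage libraries first. Fabp5 was at 0.695 (0.652 to 0.739) in the macrophage libraries and 0.963 (0.93 to 0.998) in the T-cell libraries. Chil3 was at 0.677 (0.633 to 0.723) and 0.9 (0.854 to 0.949), and Thbs1 at 0.721 (0.651 to 0.797) and 1.03 (0.969 to 1.1). Retnla, a secreted protein of alternatively activated macrophages, was at 3.56 (2.19 to 5.86) and 1 (0.88 to 1.15). In the Arg1- Nos2- cells the IL34KO-M to WT-M ratios were 0.607 for Atp6v0d2, 0.63 for Selenop, 0.601 for Trf, 0.502 for Mrc1, 0.474 for Ifih1, 0.914 for Chil3 and 0.736 for Thbs1. They were above 1 for Fabp5, at 1.2, the other way from the Arg1+ Nos2- cells, and for Retnla, at 1.23.

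Spp1 was higher in IL34KO-M, with 302 CPM in IL34KO-M and 179.7 CPM in WT-M, a ratio of 1.68 (1.49 to 1.9), and near equal in the T-cell libraries at 1.06 (0.985 to 1.13). Arg1 was at 1.34 (1.24 to 1.45) and 0.961 (0.914 to 1.01) in the macrophage and T-cell libraries, within cells chosen by it. Plac8 was at 702 CPM in IL34KO-M and 494 CPM in WT-M, a ratio of 1.42 (1.32 to 1.53), but at 122 CPM in IL34KO-T and 192 CPM in WT-T, a ratio of 0.635 (0.565 to 0.714). Of 6356 genes with at least 50 UMIs in 1 library of each pair, 81 were at least 1.5-fold higher and 218 at least 1.5-fold lower in IL34KO-M than in WT-M. In the T-cell libraries 48 were higher and 30 lower by that measure. Only 1 gene of them was higher in both pairs and 2 were lower in both, while 11 went opposite ways. Whether this overlap exceeds chance was not tested. The genes shared by both pairs were picked by these ratios, so intervals that leave out 1 follow in part from the choice. The gene higher in both was Snhg6, a noncoding host of small nucleolar RNAs, at 1.67 (1.15 to 2.41) and 2.03 (1.55 to 2.65). Those lower in both were Plpp3, at 0.249 (0.139 to 0.419) and 0.648 (0.547 to 0.766), and Lncbate10, a noncoding RNA, at 0.359 (0.156 to 0.732) and 0.54 (0.353 to 0.806). In the Arg1- Nos2- cells of the macrophage libraries the ratios were 1.09 for Spp1, 1.09 for Plac8, 1.33 for Snhg6 and 0.454 for Lncbate10. Plpp3 went the other way there, at 2.02. In the Arg1- Nos2- cells of the T-cell libraries the ratios were 0.748 for Plpp3, 1.07 for Lncbate10 and 1.74 for Snhg6. Animal, recipient and library preparation cannot be told apart in these ratios.

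**Figure D5:**
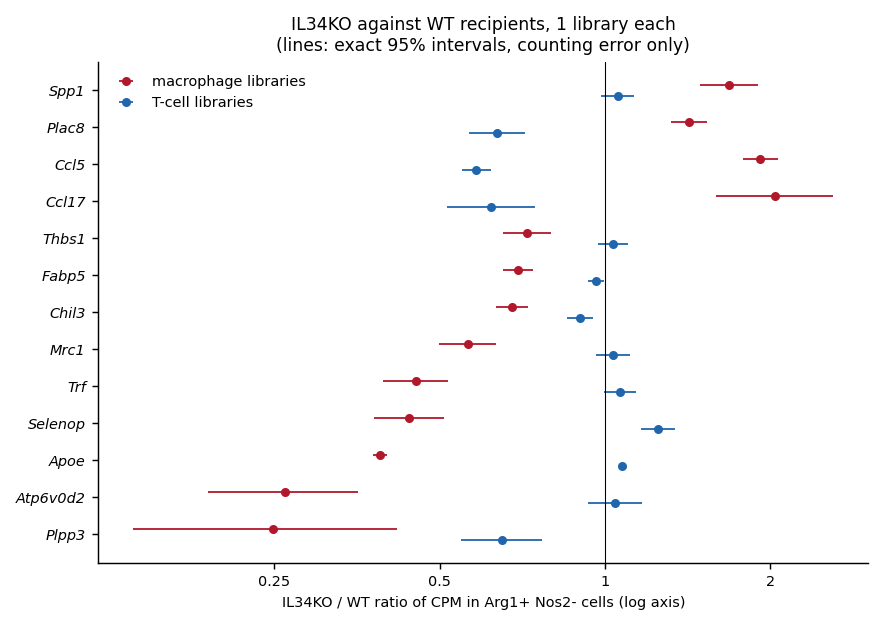
IL34KO to WT ratio of CPM (x axis, log scale) in Arg1+ Nos2- cells for 13 genes, in the macrophage libraries (red) and the T-cell libraries (blue); lines are exact 95% intervals for counting error. Apoe lies at 0.389 in the macrophage libraries and 1.07 in the T-cell libraries, and Plpp3 below 1 in both.

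Between GVHD and the recipient libraries the Arg1+ Nos2- cells differed in level as well. Thbs1 was at 1001 CPM in GVHD and at 319 to 492 CPM in the 4 recipient libraries. Inhba was at 120.2 CPM in GVHD and at 282 to 386 CPM in the recipient libraries. Both gaps were also present in the Arg1- Nos2- cells, taken without depth matching. There Thbs1 was at 924 CPM in GVHD and at 321 to 489 CPM in the recipient libraries. Inhba was at 79.6 CPM in GVHD and at 102.9 to 166 CPM in the recipient libraries. Whether either gap is particular to the Arg1+ Nos2- cells was not tested. The heat shock genes Hspa1a and Hspa1b stood at 330.0 and 317 CPM in GVHD and at most at 39.2 and 43.5 CPM in a recipient library. Group, animal and library preparation cannot be told apart in these levels. The 10 cells of BM had 12259.5 CPM of Apoe, 1469 of Mrc1 and 47.4 of Chil3 (12 UMIs), too few cells to compare.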

How the data were processed

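The 6 libraries were made with Chromium kits, with 5′ and 3′ kits both named per the labels' protocols; the labels do not tie kits to libraries. Per the submitters' processing notes reads were aligned with Cell Ranger 7.0.1 to mm10, and the authors deposited UMI counts per gene and barcode, not normalized. Kept barcodes had 500 or more genes and no more than 10% of UMIs from mitochondrial genes, and BM barcodes also present in GVHD were dropped. The cells and gene lists were chosen with earlier results of these data known. Counts were summed per library and class, genes with low counts were filtered and TMM scaling applied, and classes were compared with edgeR 4.0.16 (quasi-likelihood, library as a block, Benjamini-Hochberg adjustment at 0.05; R 4.3.3), leaving out the genes that chose the cells. Arg1- Nos2- cells were matched 1 to 1 on UMIs. The fit was tested on simulated data with 1 fixed dispersion for all genes. It called 96% of genes changed by log2 1 in either comparison, with 6 false calls in each. Of genes changed by log2 0.585 it called 45.4% against Arg1- Nos2- cells and 56.1% against Nos2+ Arg1- cells, so smaller changes can be missed. Alternatives were DESeq2 1.42.0, other filters and thresholds, and leaving out each library. Scrublet (scanpy 1.11.5) marked 1100 barcodes in WT-T and 0 in each other library, so doublets were kept, and leaving out the highest scores was an alternative.

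Genes named were the 15 highest and 15 lowest called against Arg1- Nos2- cells and the 10 and 10 against Nos2+ Arg1- cells by log2 fold change with a mean of at least 20 CPM in 1 class. Added were up to 4 genes of each list with the smallest p, 10 set genes such as Arg1 and Il34, and the genes at least 1.5-fold the same way in both IL34KO to WT pairs. Gpnmb was chosen after its values were seen. Levels between genes are in CPM and not per length, so they are not compared between genes. IL34KO to WT values are ratios of summed counts with exact conditional binomial intervals, since each group has 1 library.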

Additional observations from a re-analysis of the deposited data

Results flagged for a closer look

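In 7 of 130 genes tested for it, 1 of the 5 libraries stood apart in the log2 difference between Arg1+ Nos2- cells and matched Arg1- Nos2- cells, and chance alone marks about 1 in 20. IL34KO-M was the highest library for Ccl7 at 2.42, Ccr7 at 0.46, Fn1 at 1.35 and Apoc2 at 1.18, and the lowest for Fcgr4 at 0.041. WT-T was the lowest for Cd86 at -0.68, and WT-M the highest for Clec9a at 0.69. IL34KO-M holds the fewest Arg1+ Nos2- cells of the 5, 113.

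Ccl17 and Ccl5 went opposite ways in the IL34KO to WT ratios of Arg1+ Nos2- cells. Ccl17 stood at 2.04 in the macrophage libraries and 0.621 in the T-cell libraries, and Ccl5 at 1.92 and 0.583. The difference between the pairs was not tested. In BM 6.87% of the T cells held at least 2 Arg1 UMIs and no Nos2, above the 0.510% of its gated macrophages.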

How the results depend on the processing

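Against Arg1- Nos2- cells the 560 higher and 492 lower genes became 357 and 247 with DESeq2, 8 and 5 without the library block, and 373 and 280 with cycling cells left out. Leaving out 1 library at a time gave 394 to 527 higher and 281 to 464 lower. Against Nos2+ Arg1- cells the 1080 higher became 574 with DESeq2 and 163 without the block, and the 1186 lower became 249 without the block; leaving out 1 library gave 674 to 1124 higher and 882 to 1323 lower. The GVHD to BM share ratio was 4.56 with shared barcodes kept. The IL34KO-M to WT-M ratio was 0.443 over all filtered barcodes and 0.840 thinned, and IL34KO-T to WT-T 1.03 thinned. Top2a turned to log2 0.49 with cycling cells left out. With at least 4 Arg1 UMIs required, the IL34KO to WT log2 ratios in the macrophage libraries turned to -0.37 for Ccl22 and -0.33 for Ccr7, and with cells weighted equally that of Krt8 in the T-cell libraries to 0.086. The step on cycling cells selects on cell-cycle genes themselves, and leaves fewer cells; the other causes were not tested. Of the named genes' tested alternatives, 2857 stayed on their side of the threshold, where an uncalled gene could change sign, 75 gained the call, 288 lost it and 1 turned; of the ratios, 1225 moved by less than their interval, 93 moved more and 3 turned. No paired analysis was possible because each group has 1 library; the library block above pairs cell classes within a library. IL34KO-M adds the fewest Arg1+ Nos2- cells to the fits, 113.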
